A study of Mus musculus with 8 samples.

Results

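Adventitial fibroblasts are stromal cells that surround vessels and lie in the outer layers of the gut wall, away from the epithelium. In mouse tissues they are told apart from other fibroblasts by surface and secreted proteins such as PI16, DPP4, SCA-1 (the product of Ly6a), LY6C and CD34. Several of these proteins are also made by endothelium, blood cells or epithelium, so that no single one marks the cell type alone. The set described here holds 10 such genes, Pi16, Dpp4, Ly6a, Ly6c1, Cd34, Cd55, Anxa3, Ugdh, Clec3b and Efhd1. They were taken by name from the 53801 genes of the deposited table. All 10 passed the filter on low counts, as did 16354 genes in all.

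RNA was sequenced from mouse small intestine stromal cells that carried neither CD45, a marker of blood cells, nor CD31, a marker of endothelium. The cells came from LTβRYFP mice, a line that carries a yellow fluorescent protein, and were sorted into those with the fluorescent signal (YFP+, 4 libraries) and those without it (YFP-, 4 libraries). Both groups thus share tissue, line and the absence of CD45 and CD31. The labels do not say how old the mice were, how many stand behind a library or which promoter drives the reporter. YFP+ libraries held between 23404630 and 29829232 counts, and YFP- libraries between 23272858 and 28688906. Mitochondrial genes took 4.13% to 4.86% of the counts in YFP+ and 5.20% to 7.38% in YFP-, and the part of this difference in the results was not tested.

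Each of the 8 sample titles carries the YFP sign opposite to that of the sample's description and genotype. The groups used here are those of the description and genotype, which the count column names share. If the titles were the correct labels, every direction given below would be the reverse. Ltbr, the lymphotoxin beta receptor gene, did not settle this (log2 fold change 0.12, edgeR adjusted p = 0.396). Levels below are in CPM, which are counts scaled to the size of the library. Libraries with the same number deviated together and were taken as pairs in the fit.

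Of the 10 marker genes, 4 were lower in YFP+ cells (Pi16, Dpp4, Ly6c1 and Cd34) and none was higher in edgeR's quasi-likelihood test with the pair as a block. Pi16 stood at about 36.4% of its YFP- level, Dpp4 at 37.6%, Ly6c1 at 52.5% and Cd34 at 86.1%. Clec3b, Cd55, Ly6a and Ugdh, which with Cd34 are the most abundant of the set, had log2 fold changes between -0.20 and -0.01 and did not pass. For comparison, 7.85% of all genes tested were called lower and 3.65% higher. At an unadjusted p under 0.05, 6 of the 10 were lower and 0 higher. The share of all genes at that p was not counted, so this count adds no support. DESeq2 and limma-voom with the block each called 4 lower and 0 higher, where 7.87% and 8.36% of all genes were called lower. In the fit without the block only Pi16 and Ly6c1 of the 10 were called, where 3.34% of all genes were called lower. Of the 4, Pi16 and Dpp4 were lower by at least 2-fold, which held for 2.02% of all genes tested. In bulk samples, fewer cells of a type and less RNA per cell cannot be told apart.

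The levels of the 10 genes, as CPM per kb of exon, differed widely. Clec3b was highest, with 429.5 ± 30.1 CPM per kb in YFP+ and 449.8 ± 37.8 CPM per kb in YFP- (SD, n = 4 each). Ly6a (51.3 in YFP+ and 56.8 in YFP-), Cd34 (48.1 and 55.9) and Cd55 (36.5 and 36.7) followed. The libraries of Ly6a overlapped those of both Cd34 and Cd55 within each fraction, whereas those of Cd34 and Cd55 did not overlap each other. Ugdh came next, at 8.48 CPM per kb in YFP+ and 9.78 in YFP-.

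The remaining genes were far lower and changed places between the fractions. Among them Ly6c1 led in both, with 2.40 CPM per kb in YFP+ and 4.49 in YFP-. Pi16 had 1.30 CPM per kb in YFP+ and 3.61 in YFP-, while Anxa3 had 1.74 and 2.44, so that Anxa3 had the higher mean in YFP+ and Pi16 in YFP-. Their libraries overlapped in both fractions. Efhd1, at 0.290 and 0.820 CPM per kb, and Dpp4, at 0.226 and 0.583, were lowest and overlapped each other.

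**Figure D1:**
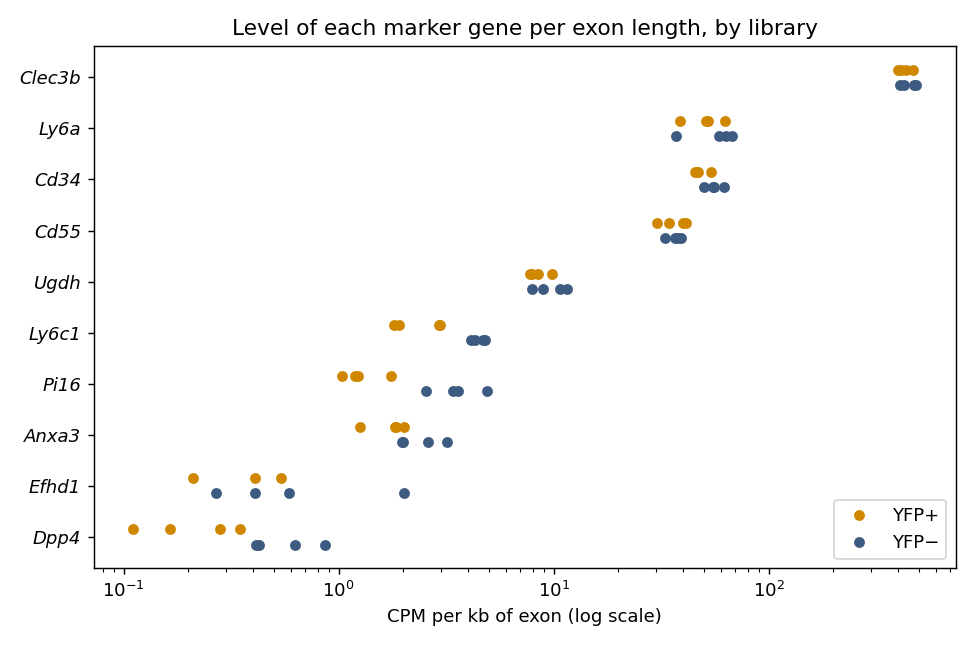
Level of each of the 10 genes per kb of exon in CPM (log axis), 1 point per library, YFP+ above YFP- in each row. Clec3b lies highest and every Dpp4 point below 1, and Efhd1 in YFP+ replicate 3 is at 0 and is not drawn.

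Pi16 and Clec3b encode secreted proteins. Pi16 (ENSMUSG00000024011, GRCm38 chromosome 17, 29317680 to 29330593, plus strand) encodes peptidase inhibitor 16, whose RNA marks adventitial fibroblasts in many mouse organs. It had 11.2, 6.58, 7.86 and 7.55 CPM in YFP+ replicates 1 to 4, against 31.2, 22.8, 21.8 and 16.2 CPM in YFP- replicates 1 to 4. The highest YFP+ library thus lay below the lowest YFP- library, which held for 3 of the 10 genes and for 5.86% of all genes tested. This was a log2 fold change of -1.46 (95% interval -1.73 to -1.18, edgeR adjusted p = 1.74e-08). Pi16 was called under all 7 other scalings, filters and tools, without each of the 4 pairs and without each of the 8 libraries, and in the fit without the block (edgeR adjusted p = 0.000605).

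Clec3b (ENSMUSG00000025784, chromosome 9, 123150946 to 123157432, plus strand) encodes tetranectin, a plasminogen-binding lectin of the extracellular matrix. It had 396, 433, 465 and 410.4 CPM in YFP+ replicates 1 to 4 and 472, 405, 483 and 425 CPM in YFP- replicates 1 to 4. The groups overlapped, and YFP+ was lower in 3 of 4 pairs. Its log2 fold change was -0.07 (95% interval -0.18 to 0.05, edgeR adjusted p = 0.525), so that a fall of the size seen for Pi16 lies outside its interval.

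**Figure D2:**
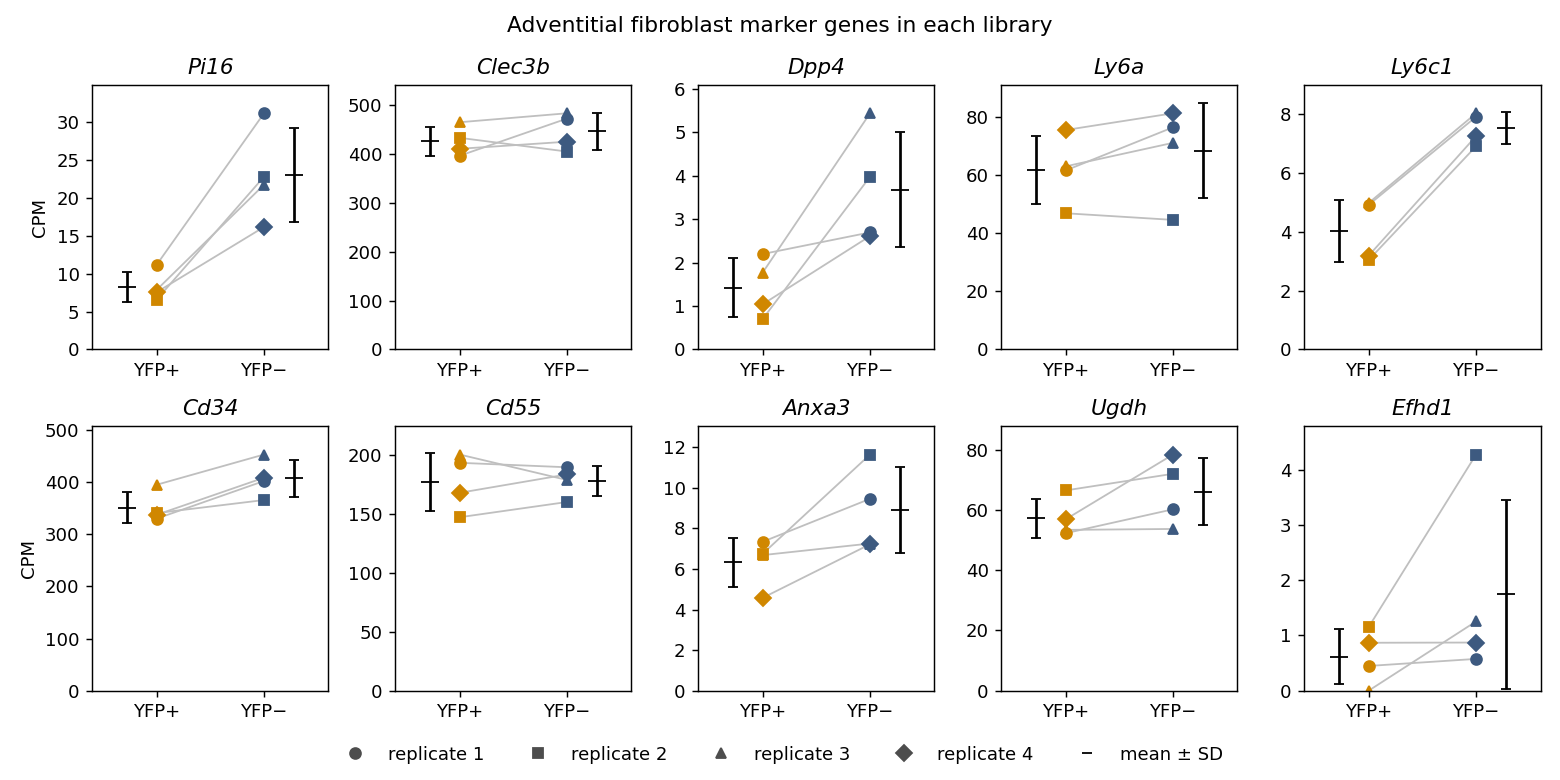
CPM of each gene in each library (linear axes from 0), YFP+ left and YFP- right, with grey lines joining libraries of the same number and black bars for the mean ± SD of 4 libraries. Pi16, Dpp4 and Ly6c1 are the panels in which all YFP+ points lie below all YFP- points.

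The surface proteins of the set did not move as a block. Dpp4 (ENSMUSG00000035000, chromosome 2, 62330073 to 62412231, minus strand) encodes dipeptidyl peptidase 4, or CD26, a membrane serine protease found on fibroblast progenitors and on the brush border of enterocytes. It was the gene with the lowest level per kb of exon, with 59, 17, 54 and 30 counts in YFP+ replicates 1 to 4 and 61, 95, 126 and 72 counts in YFP- replicates 1 to 4. Scaled, this gave 2.20, 0.699, 1.77 and 1.04 CPM in YFP+ against 2.696, 3.98, 5.44 and 2.61 CPM in YFP-. The groups did not overlap, but the pairs differed widely, with log2 ratios of -0.29, -2.47, -1.61 and -1.31 in pairs 1 to 4.

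The log2 fold change of Dpp4 was -1.41 (95% interval -2.17 to -0.65, edgeR adjusted p = 0.0112). The call was lost without pair 2 (log2 fold change -1.07, edgeR adjusted p = 0.093), without pair 3 (-1.33, edgeR adjusted p = 0.106) and in the fit without the block (-1.36, edgeR adjusted p = 0.0653). Some epithelial genes moved in the same direction. Of 11 tested epithelial genes 5 were lower in YFP+ and 1, Anpep, which other cells also express, was higher (DESeq2 called 7 and 0, and the fit without the block 4 and 0). The median log2 fold change of the 11 was -2.59, and 10 of the estimates were below 0. The summed level of the list of 12 was 76.3 to 88.2 CPM in YFP+ and 91.7 to 136 CPM in YFP-. Most of it came from Anpep, which averaged 58.2 CPM in YFP+ and 48.9 CPM in YFP-, and Lgals4. Lgals4 averaged 15.4 CPM in YFP+ and 17.6 CPM in YFP- and was not called (edgeR adjusted p = 0.346). Pigr, the epithelial receptor for polymeric immunoglobulin, had 2.01, 0.781, 2.69 and 1.14 CPM in YFP+ replicates 1 to 4 and 6.23, 18.0, 18.0 and 10.1 CPM in YFP- replicates 1 to 4, and its call was kept without the block. The part of epithelial RNA in the Dpp4 difference was not tested.

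Ly6a and Ly6c1 encode small surface proteins held by a glycolipid anchor and lie in the same gene cluster on chromosome 15. Ly6c1 (ENSMUSG00000079018, 75044018 to 75048830, minus strand) has a close copy, Ly6c2, to which reads may be misassigned. Over their 396 coding bases the pair differ at 9 positions (97.7% identity, GENCODE M21 transcripts Ly6c1-201 and Ly6c2-201). The first 120 coding bases, shown because they hold 6 of those positions, are printed 5′ to 3′ with differing bases in capitals.
Ly6c1: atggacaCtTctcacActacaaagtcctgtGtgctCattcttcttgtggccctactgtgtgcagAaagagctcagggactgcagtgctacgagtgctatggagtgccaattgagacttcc
Ly6c2: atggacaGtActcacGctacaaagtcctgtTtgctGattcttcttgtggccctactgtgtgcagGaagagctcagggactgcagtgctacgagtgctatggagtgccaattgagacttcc
Despite this likeness, Ly6c2 had at most 2 counts in any library and did not pass the filter.

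Ly6c1 had 4.92, 3.04, 4.98 and 3.19 CPM in YFP+ replicates 1 to 4, against 7.91, 6.91, 8.03 and 7.25 CPM in YFP- replicates 1 to 4. All YFP+ libraries lay below all YFP- libraries. The YFP- libraries spanned little more than 1 CPM, while the YFP+ libraries fell into a higher pair (replicates 1 and 3) and a lower pair (replicates 2 and 4). Fitted over the pairs, the log2 fold change was -0.93 (95% interval -1.37 to -0.49, edgeR adjusted p = 0.00359), and the call was kept without each pair and without the block (edgeR adjusted p = 0.0294).

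Ly6a (ENSMUSG00000075602, 74994877 to 74998031, minus strand), which encodes SCA-1, did not pass. It had 61.7, 46.9, 63.1 and 75.6 CPM in YFP+ replicates 1 to 4 and 76.5, 44.6, 71.2 and 81.4 CPM in YFP- replicates 1 to 4. Replicate 2 was the lowest library in each fraction, and the spread between numbers was larger than that between fractions. Its log2 fold change was -0.13 (95% interval -0.28 to 0.02, edgeR adjusted p = 0.294).

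Cd34 (ENSMUSG00000016494, chromosome 1, 194938819 to 194961279, plus strand) encodes a sialomucin of fibroblasts, endothelium and blood progenitors. It had 329.95, 341, 395 and 337 CPM in YFP+ replicates 1 to 4 and 402, 366, 453 and 408 CPM in YFP- replicates 1 to 4. YFP+ was lower in 4 of 4 pairs, as for 7 of the 10 genes and 16.2% of all genes tested, although the groups overlapped through YFP+ replicate 3. At -0.22, the log2 fold change was small (95% interval -0.32 to -0.11, edgeR adjusted p = 0.00498). The call was lost without pair 4 (log2 fold change -0.19, edgeR adjusted p = 0.0538) and in the fit without the block (edgeR adjusted p = 0.239).

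Cd55 (ENSMUSG00000026399, chromosome 1, 130439027 to 130462744, minus strand) encodes decay-accelerating factor, which protects cells from complement. It had 193, 147, 200.5 and 168 CPM in YFP+ replicates 1 to 4 and 189.6, 160.2, 179 and 184 CPM in YFP- replicates 1 to 4. It was lower in 2 pairs and higher in the other 2. With a log2 fold change of -0.01 (95% interval -0.14 to 0.11, edgeR adjusted p = 0.925), it had the smallest change of the set. Its neighbouring copy Cd55b averaged 2.09 ± 1.25 CPM in YFP+, against 2.32 ± 0.592 CPM in YFP- (SD, n = 4 each), and did not pass (log2 fold change -0.28, edgeR adjusted p = 0.716).

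Cd34, Ly6a and Ly6c1 are also made by endothelium. Of 8 tested endothelial genes 3 were lower in YFP+ (Pecam1, Tek and Plvap) and 0 higher by edgeR, at an unadjusted p under 0.05, by DESeq2 and by limma-voom. Without the block 1 of the 3, Tek, was called, while Pecam1 (edgeR adjusted p = 0.309) and Plvap (edgeR adjusted p = 0.120) were not. The summed level of the list of 11 was 41.7 to 54.0 CPM in YFP+ and 61.0 to 91.3 CPM in YFP-. Most of this sum came from Tek, the angiopoietin receptor, which averaged 27.3 CPM in YFP+ and 46.4 CPM in YFP-. Of the 8 tested genes 6 had estimates below 0, while Tie1 (0.50) and Prox1 (0.38) had log2 fold changes above 0 and were not called. Pecam1, which encodes CD31, averaged 4.66 CPM in YFP+ and 7.46 CPM in YFP-. Per kb of exon this came to 0.748 CPM for YFP+ and 1.20 CPM for YFP-. Cdh5, an endothelial cadherin, averaged 1.11 CPM in YFP+ and 1.39 CPM in YFP- and was not called (edgeR adjusted p = 0.662). Kdr, a VEGF receptor, averaged 1.18 and 1.45 CPM and was not called (edgeR adjusted p = 0.740). Cldn5, a tight-junction gene, had at most 0.363 CPM in any library. The part of endothelial RNA in the values of Cd34, Ly6a and Ly6c1 was not tested.

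The intracellular members were Anxa3, Ugdh and Efhd1, and none was called. Anxa3 (ENSMUSG00000029484, chromosome 5, 96793339 to 96845966, plus strand) encodes annexin A3, a calcium-dependent phospholipid-binding protein. It had 7.34, 6.74, 6.68 and 4.57 CPM in YFP+ replicates 1 to 4 and 9.46, 11.6, 7.25 and 7.22 CPM in YFP- replicates 1 to 4. The groups overlapped only through YFP+ replicate 1, and YFP+ was lower in 4 of 4 pairs. Its log2 fold change was -0.48 (95% interval -0.86 to -0.11), and with an edgeR adjusted p of 0.0953 Anxa3 was not called.

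Ugdh (ENSMUSG00000029201, chromosome 5, 65413221 to 65435949, minus strand) encodes UDP-glucose dehydrogenase, which makes the UDP-glucuronate that goes into hyaluronan and other glycosaminoglycans. It had 52.3, 66.5, 53.4 and 56.9 CPM in YFP+ replicates 1 to 4 and 60.2, 72.0, 53.7 and 78.4 CPM in YFP- replicates 1 to 4. It was lower in 4 of 4 pairs, by next to nothing in pair 3 (log2 ratio -0.0085) and most in pair 4 (-0.46). Over the pairs the log2 fold change was -0.20 (95% interval -0.36 to -0.04, edgeR adjusted p = 0.104).

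Efhd1 (ENSMUSG00000026255, chromosome 1, 87264363 to 87310839, plus strand) encodes a calcium-binding protein of mitochondria. It had 12, 28, 0 and 25 counts in YFP+ replicates 1 to 4 and 13, 102, 29 and 24 counts in YFP- replicates 1 to 4. YFP- replicate 2 alone reached 4.27 CPM, while the other 7 libraries had at most 1.25 CPM. At -1.53 the log2 fold change was the largest of the set, but its 95% interval ran from -3.07 to 0.01 and it did not pass (edgeR adjusted p = 0.223). It was -0.79 without pair 3 and, in the fit without the block, -0.54 without YFP- replicate 2, both smaller in size than the value of Pi16. YFP- replicate 2 was also the library with most enteric glial RNA, with a summed level of 209 CPM over 10 glial genes, while the other YFP- libraries had 133 to 145 CPM and the YFP+ libraries 9.12 to 11.99 CPM. Kit, placed here among the haematopoietic genes, was also highest in YFP- replicate 2, with 0.972, 4.56, 1.04 and 0.254 CPM in YFP- replicates 1 to 4. It was not called (edgeR adjusted p = 0.164). Whether glial RNA, or RNA of cells that express Kit, has a part in the Efhd1 value was not tested.

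**Figure D3:**
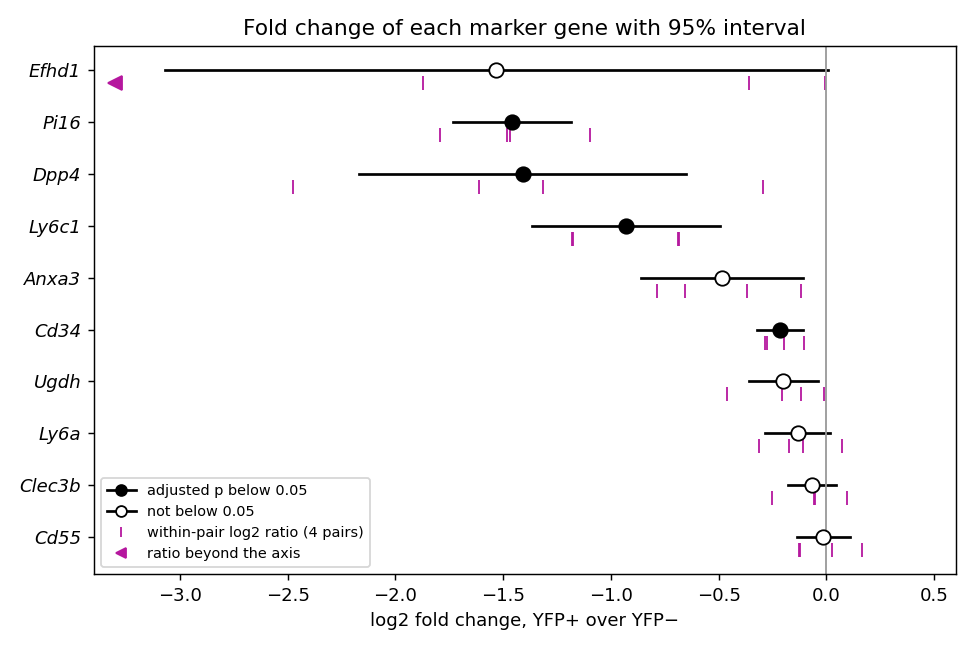
Log2 fold change of each gene, YFP+ over YFP-, with its 95% interval (not adjusted for multiple testing) and the 4 within-pair log2 ratios below it. Filled points have an edgeR adjusted p below 0.05, which holds for Pi16, Dpp4, Ly6c1 and Cd34, and the arrow marks the Efhd1 ratio of pair 3, where YFP+ had no count.

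The 10 genes separated by abundance. The 5 with a mean of at least 50 CPM (Clec3b, Cd34, Cd55, Ly6a and Ugdh) had log2 fold changes from -0.22 to -0.01, and 1 of them was called. The 5 below 50 CPM (Pi16, Anxa3, Ly6c1, Dpp4 and Efhd1) had log2 fold changes from -1.53 to -0.48, and 3 of them were called. All 10 estimates were below 0, against 48.9% of all genes tested, and the median of the set was -0.35 on the log2 scale, against 0.01 over all genes. The abundance split was seen after the values were known and was given no test.

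**Figure D4:**
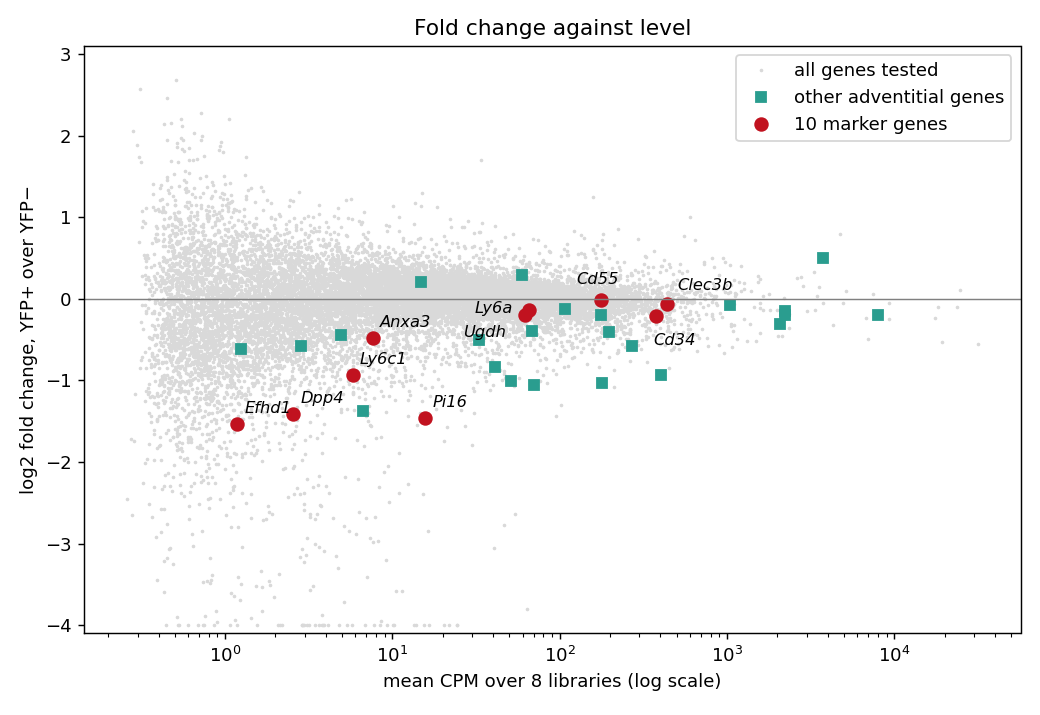
Log2 fold change (YFP+ over YFP-) against mean CPM over 8 libraries (log axis) for all genes tested in grey, the 10 marker genes in red and 23 other adventitial genes in green, with points below -4 drawn at -4. The 5 marker genes above 50 CPM lie close to 0, while several abundant green points, Gfpt2 among them, lie near -1.

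Upstream sequence was at hand for 7 of the 10 genes in RefSeq's windows on GRCm38.p6, but not for Ly6a, Anxa3 and Clec3b. The 250 bases before the RefSeq start were searched on both strands for 5 promoter motifs, chosen with the results known. The box bound by TATA-binding protein was spelled TATAAA. The box bound by NF-Y was spelled CCAAT. The box bound by SP1 and its relatives was spelled GGGCGG. For the E-box, bound by helix-loop-helix factors, the letters were CAGCTG, and the kappaB site, bound by NF-kappaB, was searched too. Printed 5′ to 3′ on the gene's strand, with motif letters in capitals, are 3 genes called lower and Cd55, which had the smallest change. The Pi16 window is not printed, since GENCODE annotates it as transcribed.
Dpp4 (chr2:62412232-62412481, minus strand): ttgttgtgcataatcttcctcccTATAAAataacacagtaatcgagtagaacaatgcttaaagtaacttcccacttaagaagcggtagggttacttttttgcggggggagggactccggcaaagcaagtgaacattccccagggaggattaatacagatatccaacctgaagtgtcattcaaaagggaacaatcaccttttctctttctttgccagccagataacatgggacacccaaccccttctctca
Ly6c1 (chr15:75048838-75049087, minus strand): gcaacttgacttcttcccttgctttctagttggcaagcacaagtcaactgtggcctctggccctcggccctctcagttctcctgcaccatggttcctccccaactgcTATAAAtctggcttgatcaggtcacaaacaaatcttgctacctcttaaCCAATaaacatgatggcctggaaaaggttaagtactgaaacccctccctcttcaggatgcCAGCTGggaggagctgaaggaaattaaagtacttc
Cd34 (chr1:194938571-194938820, plus strand): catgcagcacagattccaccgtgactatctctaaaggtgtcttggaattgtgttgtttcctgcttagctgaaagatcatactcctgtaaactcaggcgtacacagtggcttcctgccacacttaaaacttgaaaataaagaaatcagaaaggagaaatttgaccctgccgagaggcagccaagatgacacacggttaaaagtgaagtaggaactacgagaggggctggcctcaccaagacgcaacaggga
Cd55 (chr1:130462745-130462994, minus strand): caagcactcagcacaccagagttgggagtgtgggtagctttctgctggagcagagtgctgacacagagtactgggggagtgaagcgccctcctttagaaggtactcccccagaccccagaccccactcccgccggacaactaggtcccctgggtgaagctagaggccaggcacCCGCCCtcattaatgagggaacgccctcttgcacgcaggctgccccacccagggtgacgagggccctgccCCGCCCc

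The SP1 box lay in the windows of Cd55, Ugdh and Efhd1 and in 32.7% of all 32851 windows. These 3 windows had 60.8% to 69.2% GC, and those of Dpp4, Ly6c1 and Cd34 had 43.6% to 48.4% GC. The Pi16 window lay between them at 52.4% GC. Of the Ugdh window, 107 bases also lie within the gene as GENCODE annotates it. The windows with the SP1 box belonged to genes that were not called, and those without it to genes called lower. By estimate, the genes with the box included both the largest of the set, the uncertain value of Efhd1, and the smallest, that of Cd55. With motifs chosen after the results, a link between window and change was not tested. The TATA letters lay in the windows of Dpp4 and Ly6c1 (12.4% of all windows), where they ended 221 and 137 bases before the RefSeq start. The CCAAT letters lay in the windows of Pi16 and Ly6c1 (33.8%). The E-box letters lay in that of Ly6c1 (13.0%). Letters of the kappaB site were in none of the 7 and in 0.356% of all windows. A match of letters is a description and not a bound site.

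Beyond the set, a list of 24 other genes used to mark adventitial fibroblasts moved mostly the same way. The list was chosen with earlier results of these data known, so it is no independent support for the set. Of 23 tested, 15 were lower in YFP+ and 2 higher, with a list median of -0.41 on the log2 scale. Without the block the counts were 7 lower and 1 higher, where 3.34% and 0.917% of all genes were called. The groups did not overlap for 10 genes lower and 1 higher (5.86% and 3.78% of all genes).

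Among the genes of the list that were lower, those with the smallest p were Gfpt2, Scara5, Has1, Pcolce2 and Creb5. Has1, a hyaluronan synthase, had 30.5, 47.0, 51.9 and 53.0 CPM in YFP+ replicates 1 to 4, against 67.3, 85.3, 96.9 and 133 CPM in YFP- replicates 1 to 4, which is -1.06 on the log2 scale (edgeR adjusted p = 4.36e-10, or 0.0593 without the block). Gfpt2, which encodes the first enzyme of the hexosamine pathway that supplies amino sugars, averaged 276 ± 60.2 CPM in YFP+, against 526 ± 115.5 CPM in YFP- (SD, n = 4 each; log2 fold change -0.93, edgeR adjusted p = 1.03e-12). Ugdh, which feeds the same polymer, did not pass, as given above. Pcolce2, an enhancer of procollagen processing, averaged 34.0 ± 4.16 CPM in YFP+ and 68.6 ± 11.2 CPM in YFP-, which is -1.01 on the log2 scale (edgeR adjusted p = 1.66e-09).

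Scara5, a scavenger receptor that binds ferritin, averaged 117 ± 22.4 CPM in YFP+, against 239.6 ± 42.4 CPM in YFP- (SD, n = 4 each), with no overlap (log2 fold change -1.03, edgeR adjusted p = 7.03e-12). Creb5, a transcription factor, was also lower (log2 fold change -0.58, edgeR adjusted p = 3.72e-08). The most abundant members per kb of exon changed little. For Gsn, the actin-severing gelsolin, the log2 fold change was -0.20 (edgeR adjusted p = 0.00379, or 0.335 without the block). For Dpt, a matrix protein of fibroblasts, it was -0.07 (edgeR adjusted p = 0.397).

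The 2 genes of that list that were higher were Fn1 and Ackr3. Fn1, fibronectin, which most fibroblasts make, had 4243, 4388, 4671 and 4145 CPM in YFP+ replicates 1 to 4, all above the 3215, 2816, 3285 and 3072 CPM of YFP- replicates 1 to 4 (log2 fold change 0.50, edgeR adjusted p = 2.52e-08). Ackr3, an atypical chemokine receptor that takes up CXCL12, averaged 65.0 ± 10.7 CPM in YFP+, against 53.7 ± 11.8 CPM in YFP- (SD, n = 4 each). It was higher in 4 of 4 pairs (log2 fold change 0.29, edgeR adjusted p = 0.00982), but the call was lost without the block (edgeR adjusted p = 0.496).

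The neighbouring fibroblast lists showed different counts. Of 10 genes of crypt-base fibroblasts 6 were lower and 2 higher in YFP+, with a median log2 fold change of -0.55. Of 14 tested genes of subepithelial PDGFRA-high fibroblasts 2 were lower and 8 higher, with a median of 0.37. Of all genes tested, 7.85% were called lower and 3.65% higher. Without the block the crypt-base list had 6 lower and 1 higher, and the subepithelial list 1 lower and 6 higher. In that fit 3.34% of all genes were called lower and 0.917% higher. The difference between the lists was not tested, and all lists were compared in the same 8 libraries.

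**Figure D5:**
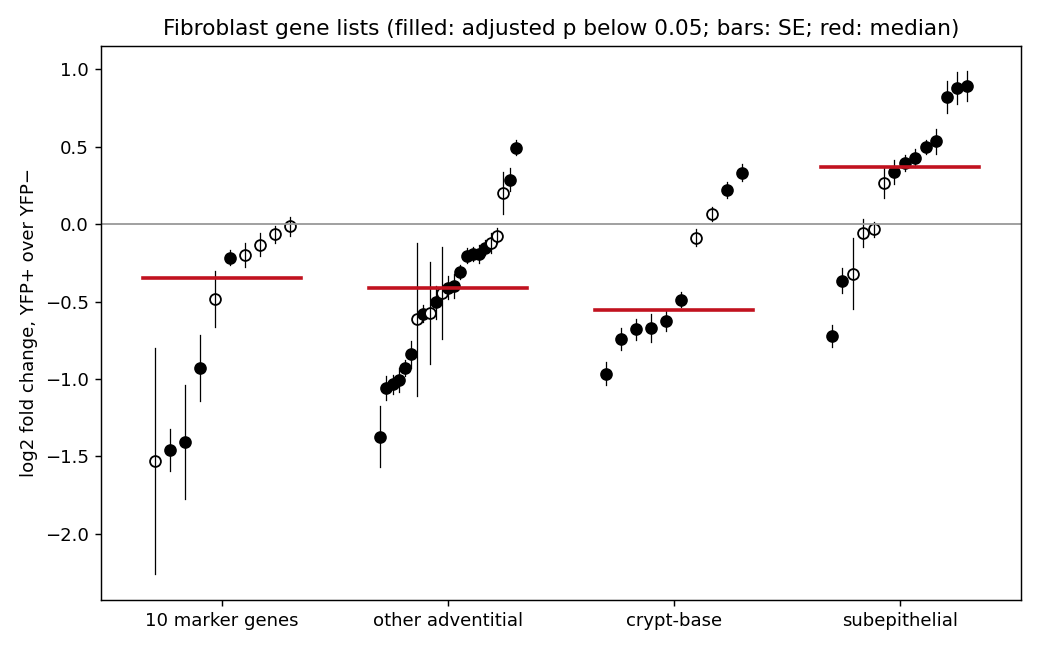
Log2 fold change (YFP+ over YFP-) of each tested gene in 4 fibroblast gene lists, sorted within a list, with its SE as a bar, the list median in red and filled points for an edgeR adjusted p below 0.05. The medians are -0.35 for the 10 marker genes, -0.41 for other adventitial genes, -0.55 for crypt-base genes and 0.37 for subepithelial genes.

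The genes whose 4 within-pair log2 ratios lay closest to those of Pi16 were sought among 10730 other tested genes that averaged 5 CPM or more. The measure was the root mean square difference of the ratios over 4 pairs. Lrrc8d, a subunit of volume-regulated anion channels, was nearest at 0.12 log2 units, followed by Mmp15, a membrane-type matrix metalloproteinase, at 0.14. Ebf1, a transcription factor, followed at 0.17, Lgi4, a secreted protein of glia, at 0.20 and Ctnna3, an alpha catenin, at 0.23. Ebf1 averaged 58.0 ± 13.6 CPM in YFP+, against 145.6 ± 47.9 CPM in YFP- (SD, n = 4 each). Within the set, Ly6c1 ranked 95 in nearness to Pi16, Anxa3 478 and Cd34 1489, while Dpp4 and Efhd1 were below the level limit.

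Other cell types that the sort could leave were examined by their marker lists. Of 10 tested glial genes 9 were lower in YFP+, with and without the block, among them Cdh19 (log2 fold change -4.75) and Kcna1 (-5.42). Of 3 tested mesothelial genes Krt19 (-3.16), a keratin that epithelium also makes, and Nkain4 (-0.63) were lower, and Upk3b was not called. Nkain4 lost the call without the block (edgeR adjusted p = 0.0907). The summed level over 8 genes was 10.7 to 16.5 CPM in YFP+ and 18.3 to 31.4 CPM in YFP-, while Msln and Lrrn4 had at most 1 count in any library. Of 10 smooth muscle genes 9 were higher, but 3 without the block. Myh11 (0.86) and Acta2 (0.78), the most abundant, were among those that lost the call (edgeR adjusted p = 0.499 and 0.453). Of 8 tested mural genes 2 were lower and 2 higher, against 2 and 1 without the block. None of 8 tested haematopoietic genes was called by edgeR, 1 had an unadjusted p under 0.05, DESeq2 called 0 and limma-voom 1. The summed level of the 11 blood cell genes was 42.8 to 329 CPM in YFP+ and 83.2 to 283 CPM in YFP-, and Igha averaged 125 CPM in YFP+ and 151 CPM in YFP-. The part of these cells in the adventitial values was not tested.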

How the data were processed

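In the table that the authors deposited, each library has a column of raw counts per gene (whole numbers, no normalisation). The submitters' processing notes name cutadapt 3.4, STAR 2.7.3a, featureCounts 2.0.1, DESeq2 and the GRCm38 build. How the counting treated strand is not given in these sources, although per the labels' protocols the kit was a stranded one for total RNA. The deposited table also gives the authors' log2 fold changes and adjusted p-values (a p-value column of the deposited table). In the authors' deposited table Pi16 has a log2 fold change of -1.45 and an adjusted p-value of 7.77e-17, and the same 4 members have an adjusted p-value under 0.05. Its normalised columns were not used.

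Counts were fitted across all genes in R 4.3.3 with edgeR 4.0.16 (filterByExpr, TMM scaling, quasi-likelihood F test with robust estimation, replicate number as a block, Benjamini-Hochberg adjustment, threshold 0.05). limma 3.58.1 (voom) and DESeq2 1.42.0 were alternatives, beside other scalings and filters, the fit without the block, a fit that drops mitochondrial and ribosomal RNA, and fits that leave out libraries. CPM are over TMM-scaled totals. The SE is the absolute log2 fold change divided by the square root of F, and 95% intervals use its t quantile. Within-pair log2 ratios add 0.5 counts.

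Libraries of the same number deviated together from their group means. Their correlations were 0.60, 0.63, 0.39 and 0.58 over the 5193 genes whose log2 CPM averaged more than 5. Libraries of different numbers gave -0.42 to 0.05. These lower values are in part set by the centring on group means, which pushes them down where libraries of the same number go together. The numbers were taken as pairs, although no label states what they share. Libraries of a group all differed by more than sampling noise (chi-square per degree of freedom at least 18.8). Whether they come from separate animals is not stated, and p-values then measure only a spread between samples that may be technical.

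Positions and exon lengths come from GENCODE M21 (GRCm38), which holds 53706 of the 53801 identifiers. Of the 10 members, 7 share 102 to 254 exonic bases with a neighbour, on the opposite strand in 5 cases, which leaves their counts uncertain by the reads of those bases. The members and the lists were chosen with earlier results of these data known. Named genes were the members, the copies Ly6c2 and Cd55b, Ltbr, up to 5 called genes per direction and the 2 most abundant of the other adventitial list, the 2 most abundant of each list of other cells with those that bear on a member, and the 5 genes nearest to Pi16; some of these are given only within counts.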

Additional observations from a re-analysis of the deposited data

Results flagged for a closer look

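In 5 of 70 sets of 4 libraries (35 genes, each fraction), 1 library stood apart from the other 3 of its group, where chance gives about 1 in 20, or 3.5. Cd34 was high in YFP+ replicate 3 (395 CPM, the others at most 341 CPM). Gfpt2 was high in both libraries numbered 4, at 366 CPM in YFP+ (the others at most 249 CPM) and 699 CPM in YFP- (the others at most 477 CPM). Dpt was low in YFP- replicate 2 (944 CPM, the others at least 1108 CPM) and Il33 in YFP- replicate 1 (94.9 CPM, the others at least 117 CPM).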

How the results depend on the processing

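Under relative log expression or upper-quartile scaling, either other filter, removal of mitochondrial and ribosomal RNA genes, DESeq2 or limma-voom, each with the replicate block, the counts of members stayed at 4 lower and 0 higher. Without the block they were 2 lower and 0 higher, other adventitial genes 7 lower and 1 higher, and all genes 547 lower and 150 higher, against 1283 and 597 with the pairing. The cause of this change was not tested. With libraries left out, as pairs with the block or singly without it, the counts ran from 1 to 4 members lower, 5 to 14 other adventitial genes lower, 1 to 2 higher, 339 to 1126 of all genes lower and 88 to 500 higher. Leaving out pair 3 gave 851 genes lower and 331 higher. The single-library removals used no block, so fewer calls there are also a matter of the fit. In them Pi16 was called in 8 of 8, Ly6c1 in 3, Dpp4 in 1 and Cd34 in 0. Cd55 changed sign, with values from -0.074 to 0.076, and Opcml ran from -1.03 to 0.00098. Depth limits Dpp4 and Efhd1 most, with at most 126 counts in any library.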
